A study of Mus musculus with 12 samples.

Results

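TCRBV03-01 and TCRBV04-01 are 2 of the 35 V gene names given to T cell receptor beta (TCRβ) rearrangements in these libraries. Their members are all rearrangements to which the deposited tables assign either name. TCRBV03-01 held 18356 of the 288925 rearrangements (6.35%), and TCRBV04-01 held 16785 (5.81%). Of the TCRBV03-01 rearrangements, 13486 were productive (in frame, no stop codon), 4769 were out of frame and 101 were in frame with a stop codon. Of the TCRBV04-01 rearrangements, 9091 were productive, 6210 were out of frame and 1484 held a stop codon.

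Genomic DNA was taken from CD8 T cells of female C57BL/6 mice that bore MC38 tumors, a colon adenocarcinoma line, and had received anti-CTLA-4 Ab and anti-PD-L1 Ab for 2 weeks. The 4 groups were splenic CD27loCX3CR1lo, CD27hiCX3CR1lo and CX3CR1hi cells, separated by flow sorting, and CD8 TILs (tumor-infiltrating lymphocytes) selected from the tumor by CD8a. Each group had 1 library from each of 3 experiments, here called A, B and C, and the experiment was used to pair the libraries. Every mouse was treated and had a tumor, so no library shows an untreated or tumor-free repertoire. The age of the mice is not in the labels. The libraries hold DNA and no expression values, so the sorted subsets could not be checked by their marker genes. Cells of several mice may be combined in a library, and its clones cannot be assigned to a single animal.

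A TCRβ gene is assembled in the thymus by joining 1 V, 1 D and 1 J segment, with bases trimmed from the segment ends and others added at the joints. The joint encodes CDR3, the loop that contacts the peptide, while the other contact loops (CDR1 and CDR2) come from the V segment itself. A cell can carry an out-of-frame rearrangement on its second allele, which makes no receptor and reports how often a V gene is joined before selection acts on the protein. Expansion of a T cell copies its rearrangement, so the share of unique rearrangements and the share of DNA templates report different things.

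RefSeq lists these genes as Trbv3 and Trbv4, V segments that lie next to each other on chromosome 6 of GRCm38.p6, at chr6:41048394-41048824 and chr6:41059443-41059886. Their germline ends were read from out-of-frame rearrangements that had lost no V base, where 221 of 224 (98.7%) TCRBV03-01 and 1138 of 1173 (97.0%) TCRBV04-01 rearrangements shared a sequence. These ends are shown because the genes differ in the codon that is in capitals, the fifth codon of CDR3 counted from its conserved cysteine. In TCRBV04-01 that codon is TAA, a stop codon.
TCRBV03-01: tgtgccagcagcTTAgc
TCRBV04-01: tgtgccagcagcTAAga

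The most abundant TCRBV03-01 clones of the CX3CR1hi and TIL libraries are shown because they carry much of the gene's template share. Capitals mark the bases between the V and the J segment, and the read stops 3 bases before the end of CDR3.
TCRBV03-01, CX3CR1hi, experiment A: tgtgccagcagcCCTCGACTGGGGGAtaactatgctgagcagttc
TCRBV03-01, CX3CR1hi, experiment B: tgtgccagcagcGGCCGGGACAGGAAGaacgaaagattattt
TCRBV03-01, CX3CR1hi, experiment C: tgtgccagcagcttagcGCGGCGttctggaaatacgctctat
TCRBV03-01, TILs, experiment A: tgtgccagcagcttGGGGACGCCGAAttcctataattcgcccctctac
TCRBV03-01, TILs, experiment B: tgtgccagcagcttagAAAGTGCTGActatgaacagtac
TCRBV03-01, TILs, experiment C: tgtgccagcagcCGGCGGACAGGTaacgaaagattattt

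The most abundant TCRBV04-01 clones are shown with the same marking. All of them had lost 4 or 5 bases of the V end and, with these, the stop codon.
TCRBV04-01, CX3CR1hi, experiment A: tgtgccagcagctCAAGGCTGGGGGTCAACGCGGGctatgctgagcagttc
TCRBV04-01, CX3CR1hi, experiment B: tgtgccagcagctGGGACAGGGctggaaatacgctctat
TCRBV04-01, CX3CR1hi, experiment C: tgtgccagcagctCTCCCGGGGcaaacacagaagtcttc
TCRBV04-01, TILs, experiment A: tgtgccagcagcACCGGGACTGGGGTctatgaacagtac
TCRBV04-01, TILs, experiment B: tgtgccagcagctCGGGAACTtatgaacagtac
TCRBV04-01, TILs, experiment C: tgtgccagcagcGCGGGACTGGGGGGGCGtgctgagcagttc

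Productive templates numbered 5893 in the TIL library of experiment A and 113660 in the CX3CR1hi library of experiment C, the lowest and highest depth. Productive unique rearrangements ran from 1359 to 54639. A clone with a count of 0 could still have held up to 0.0509% of templates in the shallowest library and 0.00264% in the deepest (3 templates). Intervals and these limits cover counting error only.

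TCRBV03-01 supplied 6.24% to 7.61% of the unique productive rearrangements of the 12 libraries. Its share of productive rearrangements in experiments A, B and C was 6.53%, 6.64% and 6.24% in CD27hiCX3CR1lo cells and 6.52%, 6.81% and 6.70% in CD27loCX3CR1lo cells. It was 6.92%, 7.24% and 6.47% in CX3CR1hi cells and 7.58%, 7.61% and 6.72% in TILs. Within each experiment TILs had the highest value, in experiment C by a narrow margin over CD27loCX3CR1lo cells, and the groups overlapped. Counting alone left 6.29% to 9.11% for the TIL library of experiment A (95% Wilson interval).

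TCRBV04-01 ran in the opposite order within a narrow range. Its share of productive rearrangements was 4.52%, 4.47% and 4.52% in CD27hiCX3CR1lo cells and 4.37%, 4.34% and 4.37% in CD27loCX3CR1lo cells. It was 4.15%, 4.17% and 4.09% in CX3CR1hi cells and 3.53%, 4.19% and 3.82% in TILs. All CX3CR1hi and TIL values lay below all values of the CX3CR1lo subsets. The interval of the TIL library of experiment A was 2.67% to 4.65%.

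Neither trend passed the test across V genes. With edgeR's quasi-likelihood test and experiment as a block, 0 of 6 group contrasts of TCRBV03-01 and 0 of 6 of TCRBV04-01 had an adjusted p under 0.05, against 6.41% of the 156 tests over all V genes. Without adjustment, 0 and 1 of them had a p under 0.05. TILs minus CD27hiCX3CR1lo cells gave a log2 difference of 0.17 (SE 0.09, adjusted p = 0.320) for TCRBV03-01. The same contrast gave -0.22 (SE 0.11, adjusted p = 0.299) for TCRBV04-01, and CX3CR1hi minus CD27hiCX3CR1lo gave -0.13 (SE 0.05, adjusted p = 0.234). CX3CR1hi minus CD27hiCX3CR1lo gave 0.08 (SE 0.05, adjusted p = 0.353) for TCRBV03-01. With all libraries at equal depth it was 0.31 (adjusted p = 0.0504) for TCRBV03-01 and -0.32 (adjusted p = 0.147) for TCRBV04-01. Over rearrangements with 2 or more templates it was 0.25 (adjusted p = 0.0880) and -0.03 (adjusted p = 0.970).

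**Figure D1:**
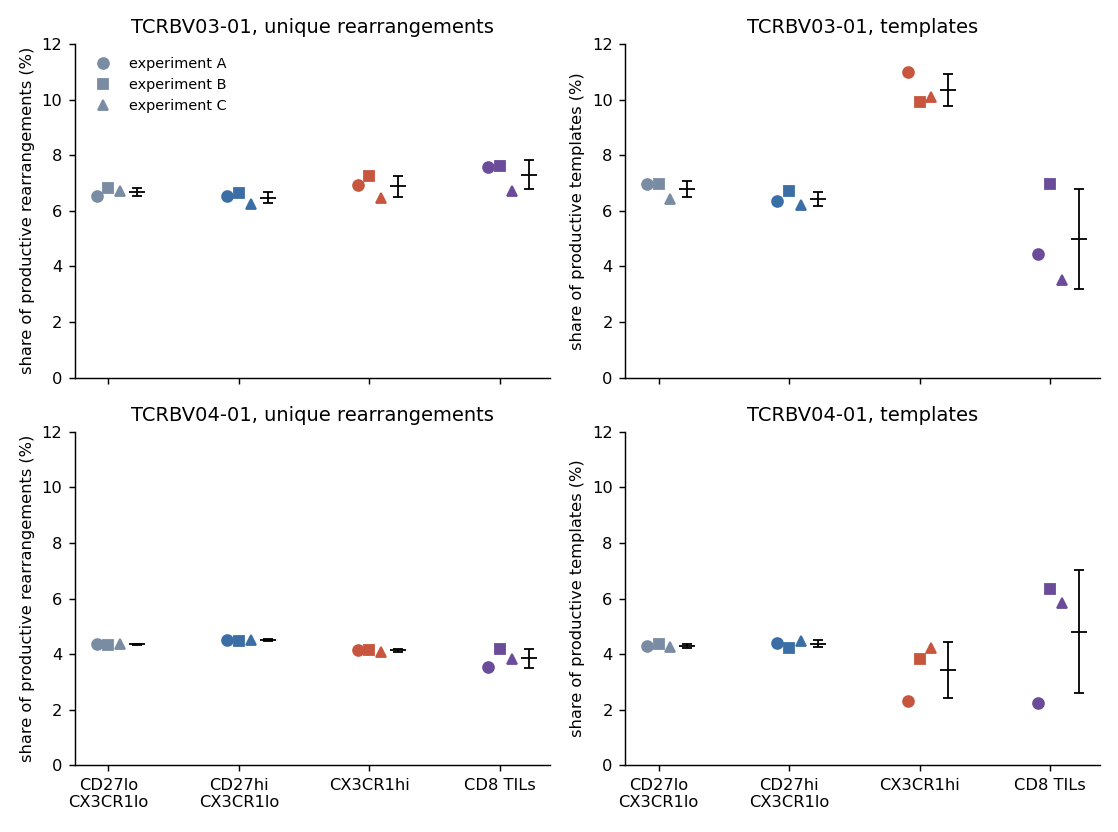
Share of each library's unique productive rearrangements (left, percent) and productive templates (right, percent) that used TCRBV03-01 (top) or TCRBV04-01 (bottom) in the 4 groups; circles, squares and triangles are experiments A, B and C, and bars are the mean ± SD (n = 3). The TCRBV03-01 template shares of the CX3CR1hi libraries, 9.91% to 11.0%, lie above those of all other libraries.

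By templates, TCRBV03-01 was highest in CX3CR1hi cells. TCRBV03-01 took 11.0%, 9.91% and 10.1% of productive templates in the CX3CR1hi libraries of experiments A, B and C. It took 6.35%, 6.71% and 6.21% in CD27hiCX3CR1lo cells, 6.96%, 6.95% and 6.43% in CD27loCX3CR1lo cells, and 4.46%, 6.98% and 3.51% in TILs. The CX3CR1hi values did not overlap with any other group, and the TIL libraries of experiments A and C were the lowest of all. Templates per productive TCRBV03-01 rearrangement averaged 12.4, 12.5 and 15.6 in CX3CR1hi cells and 2.55, 7.33 and 5.03 in TILs.

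The test across V genes did not call these template differences. CX3CR1hi minus CD27hiCX3CR1lo gave 0.69 on the log2 scale (SE 0.33, adjusted p = 0.311), and TILs minus CX3CR1hi gave -1.09 (SE 0.33, adjusted p = 0.121). For TCRBV03-01 and TCRBV04-01, 0 of 6 contrasts each were called, against 1.28% of the 156 tests over all V genes (24 without adjustment). Without its largest clone, TCRBV03-01 held 6.77%, 8.04% and 9.08% of the CX3CR1hi templates of experiments A, B and C. With the largest clone of each V gene left out of every library, CX3CR1hi minus CD27hiCX3CR1lo gave 0.79 (adjusted p = 0.0981), also not called.

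TCRBV04-01 template shares varied between experiments in CX3CR1hi cells and TILs, and little in the CX3CR1lo subsets. The gene took 2.31%, 3.82% and 4.22% of productive templates in CX3CR1hi cells and 2.26%, 6.33% and 5.84% in TILs. The CX3CR1lo subsets held 4.23% to 4.47%. The TIL values lay on both sides of those of the CX3CR1lo subsets, with experiment A low and experiments B and C high. The high values rested in part on the largest clone. It held 56.2% of TCRBV04-01 templates in TILs of experiment B and 31.6% in those of experiment C. Without the largest clone of each library, all TIL shares lay below those of the CX3CR1lo subsets (4.15% to 4.46%). They were then 1.90% in experiment A, 2.77% in experiment B and highest in experiment C.

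The clearest property of TCRBV04-01 was how few of its rearrangements were productive. In each library 46.2% to 56.0% of its rearrangements were productive, against 68.1% to 73.1% for the other V genes together and 72.4% to 75.0% for TCRBV03-01. TCRBV04-01 ranked 1 to 3 among V genes by its share of out-of-frame rearrangements, which was 7.33% to 8.68%. It ranked 12 to 15 by its share of productive ones. TCRBV03-01 ranked 3 to 7 among productive and 4 to 8 among out-of-frame rearrangements.

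The productive share of TCRBV04-01 was below its out-of-frame share in all 12 libraries and in the test of each group. The log2 ratio of these shares was -0.85 (SE 0.05, adjusted p = 9.61e-11) in CD27loCX3CR1lo cells and -0.77 (SE 0.03, adjusted p = 1.34e-12) in CD27hiCX3CR1lo cells. It was -0.97 (SE 0.06, adjusted p = 3.99e-10) in CX3CR1hi cells and -0.98 (SE 0.13, adjusted p = 3.47e-06) in TILs. These 4 of 4 calls stand against 41.7% of the 108 tests over all V genes and groups that were called lower.

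TCRBV03-01 leaned slightly to the productive side. Its log2 ratio was 0.16 (adjusted p = 0.00461) in CD27loCX3CR1lo cells, 0.12 (adjusted p = 0.00107) in CD27hiCX3CR1lo cells and 0.38 (SE 0.11, adjusted p = 0.0128) in TILs. In CX3CR1hi cells it was 0.12 (adjusted p = 0.0880) and was not called. Over all V genes 32.4% of the 108 tests were called higher, so the 3 of 4 calls of TCRBV03-01 are read against that share. The calls in CD27loCX3CR1lo cells (0.15, adjusted p = 0.0694) and TILs (0.32, adjusted p = 0.137) were lost without experiment C, and that in CD27hiCX3CR1lo cells (0.09, adjusted p = 0.0509) without experiment A.

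Whether the ratio itself differed between groups was tested as well. Of 162 such differences over all V genes, 0% were called. CX3CR1hi minus CD27hiCX3CR1lo gave -0.20 (SE 0.07, adjusted p = 0.421) for TCRBV04-01. With TMM normalization the same difference was -0.28 (adjusted p = 0.0408) and was called.

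The stop codon at the germline end of TCRBV04-01 was seen in its unproductive rearrangements. The codon TAA was kept as the fifth CDR3 codon in 2600 of 6210 (41.9%) out-of-frame and 1280 of 1484 (86.3%) stop-containing TCRBV04-01 rearrangements. With any of the stop codons counted, the shares were 47.5% and 96.8%, against 1.80% of out-of-frame TCRBV03-01 rearrangements and 0.966% of those of the other V genes. Productive rearrangements have none by definition.

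Of in-frame TCRBV04-01 rearrangements, 14.0% held a stop codon (1484 of 10575), the highest share among the 21 V genes compared. The next gene, TCRBV24-01, stood at 8.79% and TCRBV03-01 at 0.743%. Over the 12 libraries the TCRBV04-01 share ran from 10.8% to 17.2%.

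Productive TCRBV04-01 rearrangements had lost more of the V end than its out-of-frame ones. Only 1.00% of productive ones were assigned a loss of 0 to 2 bases, against 42.5% of out-of-frame ones. Such a loss would leave the stop codon of the end shown above whole. As productive rearrangements held no stop there, the bases of that 1.00% differed from this end, for a reason that was not tested. The mean loss was 4.66 bases in productive and 3.06 bases in out-of-frame TCRBV04-01 rearrangements. In TCRBV03-01, whose end has no stop codon, the means were 3.35 and 3.46 bases, and 34.9% and 35.3% had lost 0 to 2 bases.

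**Figure D2:**
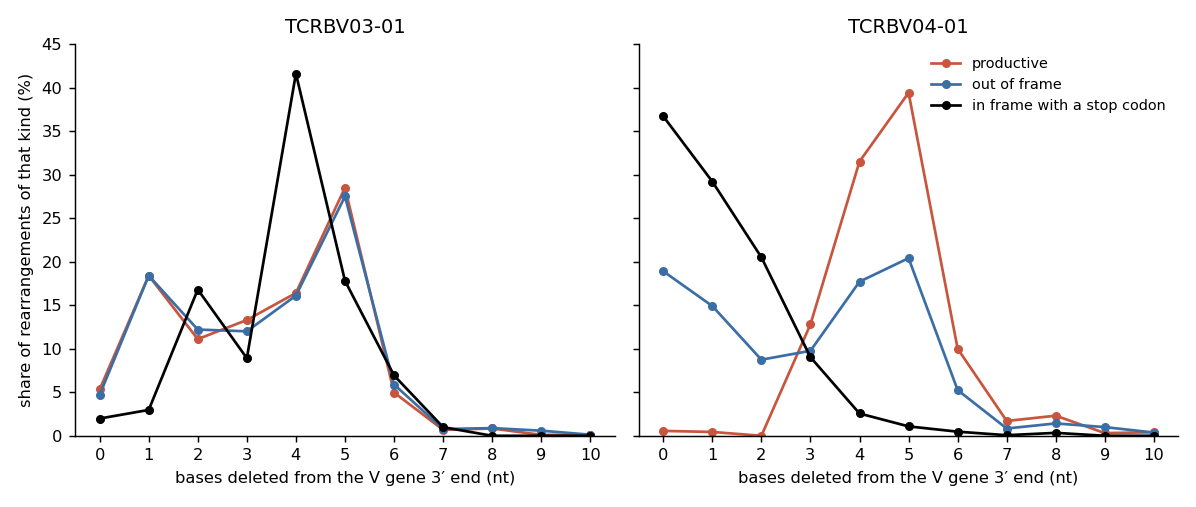
Percent of productive, out-of-frame and stop-containing rearrangements (y axis) by the number of bases lost from the 3′ end of the V segment (x axis), for TCRBV03-01 and TCRBV04-01, over all 12 libraries. Productive and out-of-frame rearrangements follow each other in TCRBV03-01, whereas productive TCRBV04-01 rearrangements with 0 to 2 lost bases make up 1.00%.

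Out-of-frame rearrangements with a stop at the fifth codon were then left out for every V gene, an alternative chosen after seeing the data. The TCRBV04-01 log2 ratio was then -0.06 (adjusted p = 0.483) in CD27loCX3CR1lo cells, -0.17 (adjusted p = 0.117) in CX3CR1hi cells and -0.33 (SE 0.19, adjusted p = 0.124) in TILs, none of them called. In CD27hiCX3CR1lo cells it turned to 0.13 (SE 0.04, adjusted p = 0.0129). Its out-of-frame share in CD27hiCX3CR1lo cells of experiments A, B and C was 3.87%, 4.21% and 4.22%, below its productive shares there. In TILs the same share was 4.17%, 6.03% and 4.44%, above its productive shares. The difference between CX3CR1hi and CD27hiCX3CR1lo cells was then -0.30 (adjusted p = 0.410) and was not called.

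**Figure D3:**
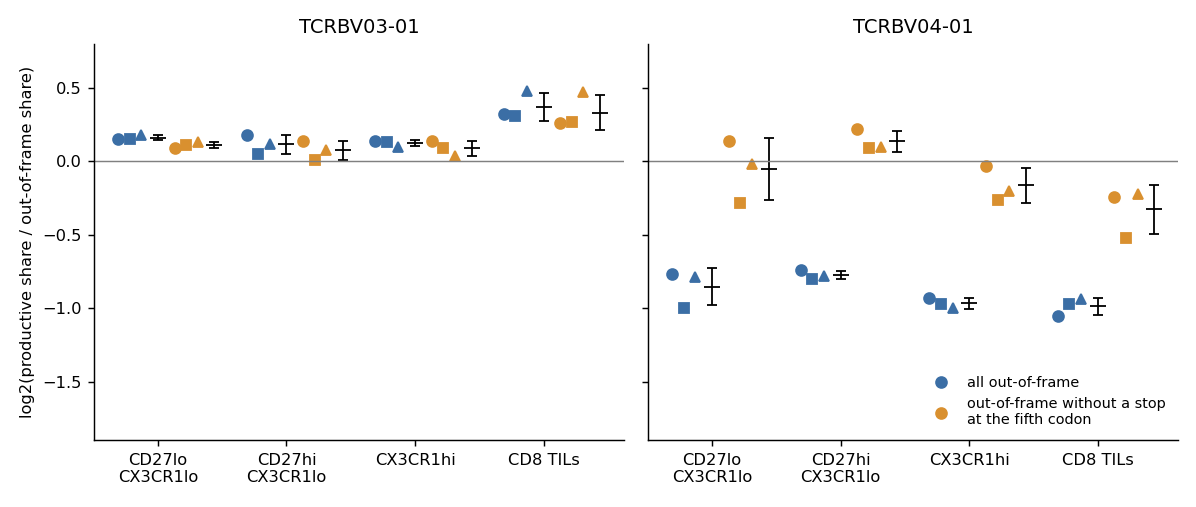
Log2 of the share among productive rearrangements over the share among out-of-frame rearrangements (y axis) for each library of the 4 groups, TCRBV03-01 and TCRBV04-01; blue uses all out-of-frame rearrangements, orange leaves out those with a stop at the fifth CDR3 codon, and bars are mean ± SD (n = 3). The TCRBV04-01 points lie below 0 in blue and from -0.52 to 0.22 in orange.

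The J partners of both genes were led by TCRBJ02-07, with a mean over the 12 libraries of 20.4% of productive TCRBV03-01 and 26.5% of productive TCRBV04-01 rearrangements. TCRBJ02-01 followed with 11.2% and 15.6%. TCRBJ01-07 and TCRBJ02-06 were found with 0 productive TCRBV03-01 rearrangements. They were also rare with the other V genes, at no more than 0.0193% and 0.0698% of productive rearrangements in any library. J genes of the first cluster took 36.8% ± 5.16 (SD over 12 libraries) of TCRBV03-01 and 24.9% ± 3.07 of TCRBV04-01.

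Between groups, 1 of 48 J tests of TCRBV03-01 and 0 of 48 of TCRBV04-01 were called, against 1.05% of 1052 tests over all V genes. The called pair was TCRBV03-01 with TCRBJ01-03. TCRBJ01-03 joined 8.69%, 12.3% and 9.85% of productive TCRBV03-01 rearrangements in the CX3CR1hi libraries of experiments A, B and C. It joined 5.25%, 6.02% and 4.93% in CD27hiCX3CR1lo cells, 6.85%, 5.69% and 6.26% in CD27loCX3CR1lo cells, and 2.91%, 13.6% and 12.3% in TILs. The CX3CR1hi values lay above all values of the CX3CR1lo subsets, while the TILs split, with only 3 such rearrangements in experiment A against 16 and 18.

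CX3CR1hi minus CD27hiCX3CR1lo gave a log2 difference of 0.93 (SE 0.14, 1.90-fold, adjusted p = 7.12e-06, edgeR). In this contrast 1.52% of 263 pairs were called over all V genes. The call was lost without experiment B (0.88, adjusted p = 0.0786). TILs minus CD27hiCX3CR1lo gave 0.91 (SE 0.27, adjusted p = 0.0956), and 1.25 (adjusted p = 0.00338) without experiment A. The other V genes joined TCRBJ01-03 in group means of 4.05% to 5.20%. Out-of-frame TCRBV03-01 rearrangements joined it in 2.16%, 8.61% and 5.49% of cases in CX3CR1hi cells and in 5.45%, 6.22% and 5.28% in CD27hiCX3CR1lo cells, so those groups overlapped.

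TCRBV04-01 was joined to TCRBJ02-01 in 18.9%, 15.5% and 16.9% of cases in CX3CR1hi cells, in 18.8%, 16.9% and 22.9% in TILs and in 13.3%, 13.1% and 14.4% in CD27hiCX3CR1lo cells. The CX3CR1hi and TIL values overlapped with each other and lay above those of CD27hiCX3CR1lo cells. The log2 differences from CD27hiCX3CR1lo cells, 0.32 (adjusted p = 0.200) and 0.54 (adjusted p = 0.360), were not called. Out-of-frame TCRBV04-01 rearrangements used TCRBJ02-01 in 13.0%, 19.6% and 19.7% of cases in TILs (6, 11 and 15 rearrangements), in 9.87%, 13.4% and 10.8% in CX3CR1hi cells and in 10.8%, 11.8% and 10.7% in CD27hiCX3CR1lo cells. The out-of-frame share was thus also above that of CD27hiCX3CR1lo cells in all TIL libraries.

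**Figure D4:**
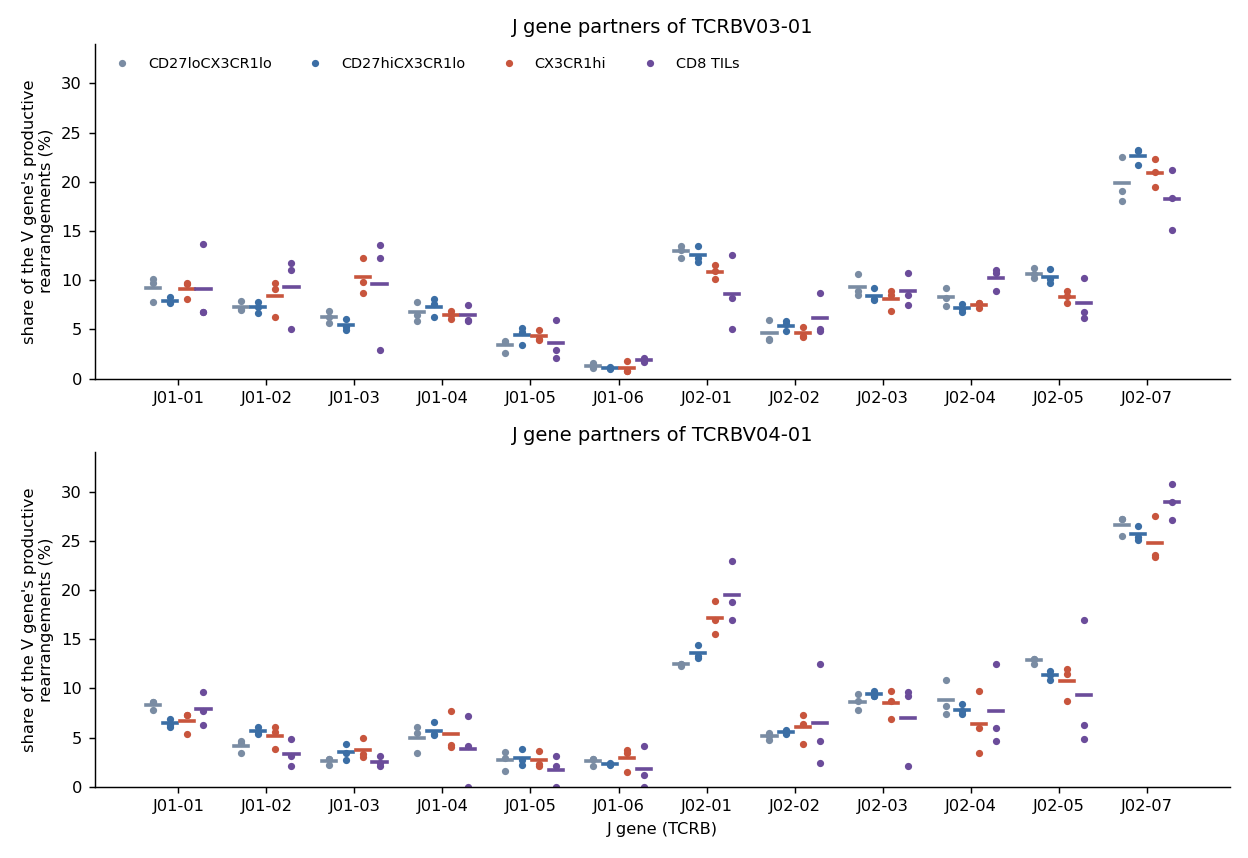
Percent of the productive rearrangements of TCRBV03-01 and TCRBV04-01 (y axis) that used each J gene (x axis), by group; points are libraries and bars the mean of 3. TCRBJ02-07 is the most used partner of both genes, and TCRBV03-01 with TCRBJ01-03 stands at 8.69% to 12.3% in CX3CR1hi libraries against 4.93% to 6.02% in CD27hiCX3CR1lo ones.

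The TCRBV03-01 and TCRBJ01-03 rearrangements of CX3CR1hi cells and TILs often encoded the same short motif. This motif, 2 adjacent arginines directly before the residues of TCRBJ01-03, was chosen after the values were seen, so it is described without a test. It was present in 23 of 43, 20 of 50 and 23 of 73 of these rearrangements in CX3CR1hi cells of experiments A, B and C (53.5%, 40.0% and 31.5%). In TILs it was in 2 of 3, 13 of 16 and 10 of 18, and in CD27hiCX3CR1lo cells in 8 of 146, 7 of 152 and 9 of 168. The CX3CR1hi and TIL libraries lay above all CX3CR1lo libraries, of which the CD27loCX3CR1lo ones held 9.23% to 14.0%.

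The motif was less common with the other V genes pooled, TCRBV04-01 among them. There it was in 5 of 316, 3 of 274 and 27 of 598 TCRBJ01-03 rearrangements of CX3CR1hi cells (1.58%, 1.09% and 4.52%). Of the TCRBV04-01 and TCRBJ01-03 rearrangements of CX3CR1hi cells, 0 of 10, 0 of 7 and 5 of 23 carried it. Without the motif, TCRBJ01-03 joined 4.24%, 7.79% and 6.96% of TCRBV03-01 rearrangements in CX3CR1hi and 4.98%, 5.76% and 4.68% in CD27hiCX3CR1lo cells, which overlapped. As the motif was chosen after its values were seen, leaving it out lowers the CX3CR1hi shares more than the CD27hiCX3CR1lo ones. The source of the difference in TCRBJ01-03 use was not tested. By templates, the motif-bearing rearrangements held 1.42%, 1.44% and 3.51% of the CX3CR1hi libraries and 0.0315% to 0.0657% of the CD27hiCX3CR1lo ones. In TILs they held 0.0339%, 0.969% and 0.501%, and the lowest of these rests on 2 templates.

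Different DNA sequences encoded the same receptor chain. The motif was found in 69 distinct nucleotide rearrangements that encoded 18 CDR3s, all 45 bases long, and 1 nucleotide rearrangement was present in all 3 experiments. Among the 18 CDR3s, 2 were found in all 12 libraries, encoded by 25 and 14 nucleotide rearrangements. Abundant versions from CX3CR1hi cells are shown because each line of a set encodes the same CDR3. The experiment named is the one in whose CX3CR1hi library the version was among the 2 most abundant of that CDR3. A version can also occur in other experiments, and the one labeled A and C was found in 9 libraries. Capitals again mark the bases between V and J.
first CDR3, experiment A: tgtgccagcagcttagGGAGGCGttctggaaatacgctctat
first CDR3, experiments A and C: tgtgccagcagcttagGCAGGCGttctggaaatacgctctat
first CDR3, experiment B: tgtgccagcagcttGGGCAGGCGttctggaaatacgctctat
first CDR3, experiment B, other version: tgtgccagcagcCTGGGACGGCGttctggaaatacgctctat
second CDR3, experiment A: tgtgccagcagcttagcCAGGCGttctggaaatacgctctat
second CDR3, experiment B: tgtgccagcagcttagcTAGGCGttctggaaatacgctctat
second CDR3, experiment C: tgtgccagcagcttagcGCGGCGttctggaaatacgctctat

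The first CDR3 was encoded by 10, 8 and 6 nucleotide rearrangements in the CX3CR1hi libraries and held 0.333%, 0.853% and 0.802% of their templates. It held 0.0130% to 0.0265% of the CD27hiCX3CR1lo libraries, 0.0272% to 0.0740% of the CD27loCX3CR1lo ones and 0.0170%, 0.242% and 0.115% of the TIL ones. The second CDR3 was encoded by 6, 3 and 5 and held 0.538%, 0.0843% and 1.12% of CX3CR1hi templates, against 0.00204% to 0.0238% in CD27hiCX3CR1lo cells, 0.0110% to 0.0324% in CD27loCX3CR1lo cells and 0.0170%, 0.153% and 0.153% in TILs. Within each experiment both held more templates in CX3CR1hi cells than in either CX3CR1lo subset. Against TILs this was so except for the second CDR3 in experiment B, which was higher in TILs. Both CDR3s were picked for their presence in all CX3CR1hi libraries, within a motif chosen after its values were seen. Their higher share in CX3CR1hi cells is thus a description and was not tested.

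The arginine pair was not limited to TCRBJ01-03. With 2 adjacent arginines counted anywhere in CDR3, also a choice made after seeing the values, 17.0%, 17.8% and 12.4% of productive TCRBV03-01 rearrangements of CX3CR1hi cells carried them. The shares were 6.80%, 22.9% and 28.8% in TILs, 2.01%, 1.74% and 1.82% in CD27hiCX3CR1lo cells and 2.36%, 3.41% and 2.50% in CD27loCX3CR1lo cells. All 6 CX3CR1hi and TIL values lay above the 6 others. Of the 248 rearrangements in CX3CR1hi cells, 85 used TCRBJ01-03, 39 TCRBJ01-01, 35 TCRBJ01-02 and 25 TCRBJ02-04.

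TCRBV04-01, the neighboring gene, showed no such level. Its share with 2 adjacent arginines was 0.882% to 3.63% over the 12 libraries, and that of the other V genes pooled was 1.20% to 2.32%. Whether any of the pooled V genes alone reached the TCRBV03-01 level was not examined. One TCRBV04-01 clone of experiment B with 2 adjacent arginines was expanded, at 1.03% of TIL and 0.326% of CX3CR1hi templates.

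These rearrangements made up much of the TCRBV03-01 template share. They held 2.97%, 3.70% and 6.21% of all productive templates in CX3CR1hi cells, which was 1654 of 6134, 1885 of 5051 and 7060 of 11532 TCRBV03-01 templates. Without them, TCRBV03-01 held 8.28%, 6.45% and 4.20% in CX3CR1hi cells and 6.21%, 6.58% and 6.04% in CD27hiCX3CR1lo cells. The groups then overlapped. Because the pair was chosen after these values were seen, leaving it out lowers the CX3CR1hi share more than the CD27hiCX3CR1lo share. The overlap follows in part from that choice, and the source of the template difference was not tested.

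**Figure D5:**
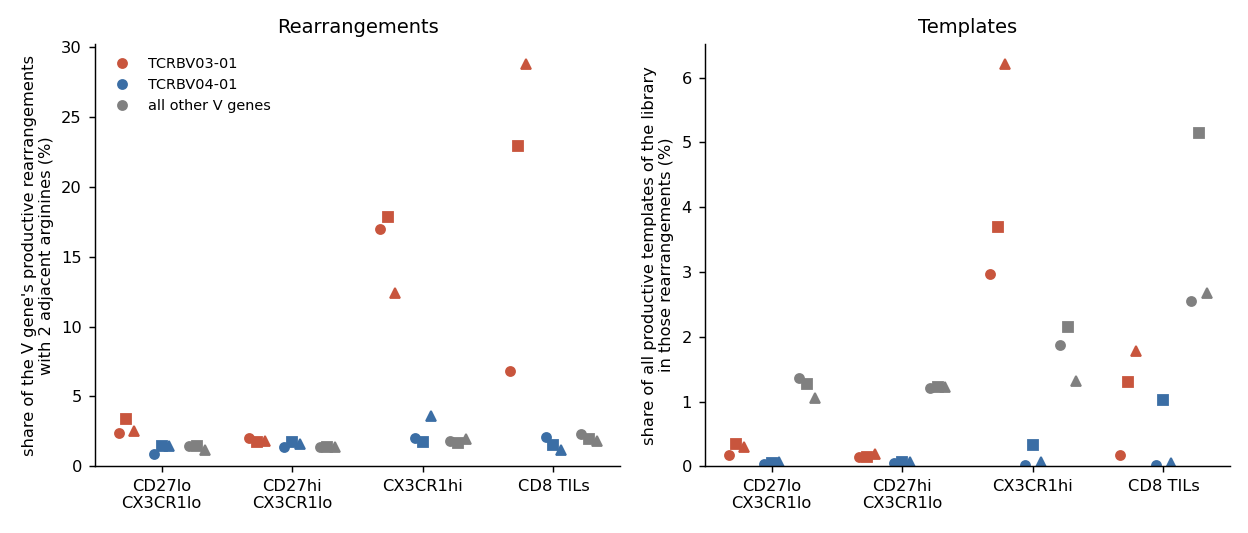
Left, percent of a V gene's productive rearrangements with 2 adjacent arginines in CDR3; right, percent of the library's productive templates that these rearrangements held, for TCRBV03-01, TCRBV04-01 and the other V genes together in the 4 groups; points are libraries. TCRBV03-01 stands at 12.4% to 17.8% of rearrangements in CX3CR1hi cells and at 1.74% to 3.41% in the CX3CR1lo subsets.

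Clones were called expanded at 0.1% or more of a library's productive templates. TCRBV03-01 had 12, 18 and 17 expanded clones in the CX3CR1hi libraries of experiments A, B and C, of 143, 126 and 144 in all, and 8, 14 and 8 in TILs. TCRBV04-01 had 5, 5 and 7 in CX3CR1hi cells and 7, 6 and 4 in TILs. In the CX3CR1lo subsets each gene had 1 expanded clone, both in CD27loCX3CR1lo cells, at 0.522% for TCRBV03-01 in experiment A and 0.237% for TCRBV04-01 in experiment B. The CD27hiCX3CR1lo libraries had 0 expanded clones of either gene.

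Expanded clones held 70.1%, 70.4% and 67.8% of TCRBV03-01 templates in CX3CR1hi cells and 49.8%, 76.2% and 59.6% in TILs. For TCRBV04-01 they held 40.1%, 66.3% and 61.0% in CX3CR1hi cells and 52.6%, 87.8% and 84.9% in TILs. The groups did not overlap with the CX3CR1lo subsets, where the highest value was 7.51%. The difference between the mean of CX3CR1hi cells and TILs and the mean of the CX3CR1lo subsets was 64.4 points ± 8.56 (SD, n = 3) for TCRBV03-01 and 64.6 ± 15.8 for TCRBV04-01. In an exact 2-sided permutation test within experiments, both had p = 0.00926, the smallest it can give, and an adjusted p of 0.0133. Over all V genes 78.3% of 23 were called, so both genes shared this with most others, and the median over the 23 was 51.3 points.

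Many of the expanded TCRBV03-01 clones carried the arginine pair. It was in 5 of 12, 9 of 18 and 11 of 17 expanded TCRBV03-01 clones of CX3CR1hi cells and in 0 of 8, 5 of 14 and 4 of 8 of those of TILs. With V genes other than TCRBV03-01 and TCRBV04-01, it was in 5 of 126, 5 of 103 and 3 of 120 expanded clones of CX3CR1hi cells. In TILs those counts were 3 of 100, 4 of 108 and 3 of 119. As the pair was chosen after its values in these libraries were seen, the counts are a description and no independent support for it. In experiment C, the leading clones at 1.06%, 0.978% and 0.750% of CX3CR1hi templates all had it. The same 3 clones were at 0.119%, 0.177% and 0.282% of TIL templates. In experiments A and B, by contrast, the leading CX3CR1hi clones (4.22% and 1.86%) were not found among the TILs.

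The leading TCRBV03-01 clone of TILs in experiment B held 1.94% there and 0.0667% of CX3CR1hi templates, and that of experiment C held 0.687% and 0.0572%. The leading TCRBV04-01 clone of TILs in experiment B held 3.56% there, 0.514% of CX3CR1hi and 0.237% of CD27loCX3CR1lo templates. It is the expanded TCRBV04-01 clone of CD27loCX3CR1lo cells named above. The leading TCRBV04-01 clone of TILs in experiment C held 1.84% there and 0.277% of CX3CR1hi templates. In experiment A the leading TIL clones rested on few templates, 39 for TCRBV03-01 and 21 for TCRBV04-01. All 3 leading TIL clones of each experiment that used TCRBV04-01 were present in the CX3CR1hi library of their experiment.

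Of all TCRBV03-01 templates of TILs, 41.1%, 84.9% and 88.6% belonged to rearrangements that were also in the CX3CR1hi library of the same experiment. The shares found in CD27loCX3CR1lo cells were 13.7%, 41.0% and 48.7%, and in CD27hiCX3CR1lo cells 15.6%, 44.4% and 43.4%. Within each experiment the CX3CR1hi share was the highest. TIL templates of the V genes other than TCRBV03-01 and TCRBV04-01 were found in CX3CR1hi cells at 65.5%, 85.2% and 85.2%. The mean difference from the CX3CR1lo subsets was 37.0 points ± 9.18 (SD, n = 3; exact permutation test, p = 0.0370, the smallest that 27 arrangements can give, adjusted p = 0.0608).

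TCRBV04-01 templates of TILs were found in CX3CR1hi cells at 44.4%, 91.7% and 93.2%. They were found at 0%, 70.2% and 88.5% in CD27loCX3CR1lo cells and at 21.1%, 63.5% and 32.2% in CD27hiCX3CR1lo cells. Its difference was 30.5 points ± 4.92 (SD, n = 3; exact permutation test, p = 0.111, adjusted p = 0.122). No V gene passed after adjustment (0% of 23), while 14 had an unadjusted p under 0.05. The median difference over the 23 V genes was 33.3 points (13.6 to 56.8), and the values of both genes lie near it. The CX3CR1hi and CD27hiCX3CR1lo libraries were deeper than the CD27loCX3CR1lo ones, and depth limits how many clones can be found again.

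TCRBV03-01 rearrangements of TILs with 2 adjacent arginines were found in the CX3CR1hi library of their experiment in 65 of 76 cases. The other TCRBV03-01 rearrangements of TILs were found there in 96 of 291 cases. By experiment the counts were 5 of 7, 23 of 27 and 37 of 42 against 18 of 96, 32 of 91 and 46 of 104. The motif-bearing ones were found again more often in each experiment, which is given without a test. The pair was chosen after its frequency in CX3CR1hi cells was seen, so these counts are no independent support for it. Clone size, which affects whether a clone is found again, was not matched between the sets.

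Some CDR3s recurred across experiments. Of 1677 TCRBV03-01 CDR3s of CX3CR1hi cells or TILs, 11 (0.656%) were found in such libraries of all 3 experiments, and 8 of these 11 carried 2 adjacent arginines. The pair was chosen after its values were seen, so this count is a description. Of 1084 TCRBV04-01 CDR3s, 0 recurred, and of 22743 CDR3s of the other V genes 92 (0.405%) did. In CD27hiCX3CR1lo cells 77 of 7740 TCRBV03-01 CDR3s (0.995%) and 31 of 5584 TCRBV04-01 CDR3s (0.555%) recurred. Of the CDR3s of the other V genes, 994 of 106933 (0.930%) recurred there, close to the TCRBV03-01 share. Recurrence depends on how many CDR3s were sampled, which differed between genes and groups, and these shares were not tested against each other.

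Productive TCRBV03-01 CDR3s averaged 42.6 bases in CD27hiCX3CR1lo cells, 42.4 in CX3CR1hi cells and 42.2 in TILs. Those of TCRBV04-01 averaged 41.9, 42.0 and 41.6. None of the 4 length contrasts of either gene was called by limma (smallest adjusted p = 0.113), against 11.2% of 80 tests over all V genes. For TCRBV03-01, CX3CR1hi minus CD27hiCX3CR1lo was -0.175 bases (adjusted p = 0.534) over rearrangements and turned to 1.61 bases (adjusted p = 0.431) when each rearrangement was weighted by its templates.

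Inserted bases in TCRBV03-01 averaged 3.65 in CD27hiCX3CR1lo cells (3.60 to 3.71), 4.04 in CX3CR1hi cells (3.97 to 4.11) and 4.05 in TILs (3.67 to 4.31). The CX3CR1hi libraries lay above the CD27hiCX3CR1lo ones, by 0.398 bases (SE 0.137, adjusted p = 0.563, limma), and were not called. Weighted by templates, the difference was 1.14 bases (adjusted p = 0.0485, limma) and was called. TCRBV04-01 stayed at 3.70 to 4.01 bases in all 12 libraries. Over all V genes 0% of 80 unweighted tests were called, and 4 had an unadjusted p under 0.05. With template weights 1 of 80 was called, and 12 had an unadjusted p under 0.05. Weighted means lean on large clones, as the largest held 38.4% of TCRBV03-01 templates in CX3CR1hi cells of experiment A.

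Across the 12 libraries, the share of productive rearrangements of TCRBV03-01 varied most like that of TCRBV05-01 (r = 0.880), TCRBV01-01 (r = 0.591) and TCRBV19-01 (r = 0.561) among 22 V genes. TCRBV04-01 varied most like TCRBV12-01 (r = 0.898), TCRBV16-01 (r = 0.772) and TCRBV12-02 (r = 0.747). TCRBV03-01 and TCRBV04-01 ran opposite to each other (r = -0.600). These values are descriptions, since the libraries share experiments and groups and shares sum to a fixed total.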

How the data were processed

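Libraries of rearranged TCRβ genes were made by the authors from genomic DNA (ImmunoSEQ kit, survey level) and run on an Illumina NextSeq500. Reads were processed on the kit's platform, and per the labels the build is mm10; the aligner is not given in the sources used here. The deposited tables give 1 row per rearrangement with a count of templates, not normalized, the assigned V, D and J genes, reading frame, CDR3 length, deletions and insertions, which were used as deposited. PCR and gene assignment by the kit affect all V gene shares; 22 rearrangements without a V name stayed out.

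Groups were taken from the labels. The members, lists and tests were chosen with earlier results of these data known. Clones named are the 3 most abundant per gene in each CX3CR1hi and TIL library at 0.1% of productive templates or more, of which the first are printed, and CDR3s found in such libraries of all 3 experiments. V genes named as alike are the 3 with the highest Pearson r of log2 share. J genes named are the most used pair of partners of each gene, those called in a contrast and those absent. The arginine motif was chosen after its values were seen.

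Unique rearrangements or templates per V gene were tested with edgeR's quasi-likelihood test (edgeR 4.0.16 in R 4.3.3) on library totals, without a further normalization factor, with a minimum of 10 rearrangements per V gene and 20 per V and J pair. Productive and out-of-frame shares were compared in 1 model over both kinds of rearrangement. CDR3 length and insertions were tested with limma 3.58.1, and expanded and shared templates with an exact permutation test within experiments. Benjamini-Hochberg adjustment ran over all V genes and contrasts of a family, with a threshold of 0.05. Fits were tested on simulated data. The experiment was a block, as in the authors' repeated-measures design. In the comparison of productive and out-of-frame shares the library was the block instead, since each library gives both kinds of rearrangement. Libraries carry the experiment's code in the labels; deviations from group means correlated at 0.0991 on average (-0.383 to 0.630, 18 pairs) within experiments and -0.0510 (36 pairs) between them, over 20 V genes. Libraries may be pools of mice, so no p-value measures the spread between mice. The replicates are the 3 experiments, but in edgeR's test counting error also enters the p-value, which thus does not measure their spread alone. The SE of an edgeR value was derived from its log2 difference and the F statistic, so it need not match the p-value. Productive templates per library, 5893 to 113660, set the precision, and intervals are Wilson intervals at 95%. In addition, 39 other settings were tried (DESeq2 1.42.0 among them), of which 1 was chosen after seeing the data. Tables were made with Python 3.11.15.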

Additional observations from a re-analysis of the deposited data

How the results depend on the processing

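Values are log2 differences unless a unit is given; the cause of a change was not tested unless named. Without the block (experiment, or library for productive against out-of-frame shares), no call on TCRBV03-01 or TCRBV04-01 changed. TCRBV03-01 with TCRBJ01-03 in CX3CR1hi against CD27hiCX3CR1lo cells was then 0.92. DESeq2, the amino acid clonotypes, other minima and leaving out each gene's largest clone changed no call on them.

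In shares of productive rearrangements, TILs minus CX3CR1hi cells reversed at equal depth (-0.13 for TCRBV03-01, 0.10 for TCRBV04-01) and, for TCRBV03-01, over rearrangements with 2 or more templates (-0.08); none of these was called.

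In the ratio of productive to out-of-frame share, TCRBV04-01 was no longer called when templates were counted (-0.80 in CD27loCX3CR1lo cells, -0.78 in CD27hiCX3CR1lo cells, -0.91 in CX3CR1hi cells, -0.67 in TILs). Leaving out stops at the fifth codon, chosen after seeing the data, gave -0.06, 0.13 (reversed), -0.17 and -0.33 in the same order. Its group differences became 0.14 (CX3CR1hi minus CD27hiCX3CR1lo) and 0.10 (TILs minus CD27hiCX3CR1lo) against stop-containing rearrangements, -0.28 for the former with TMM (adjusted p = 0.0408, edgeR, called) and 0.10 for the latter by templates. TCRBV03-01 by templates gave 0.20, 0.15 and -0.17 in CD27loCX3CR1lo cells, CD27hiCX3CR1lo cells and TILs, and -0.32 for TILs minus CD27hiCX3CR1lo, none called. Against stop-containing rearrangements it gave 0.45 (CD27loCX3CR1lo) and 1.45 (TILs), no longer called, 1.16 (CX3CR1hi), called, and -0.01 for CX3CR1hi minus CD27hiCX3CR1lo. With TMM it gave 0.27 in CX3CR1hi cells (called) and -0.08 for that difference. Over 2 or more templates it gave 0.14 in CD27loCX3CR1lo cells (not called) and 0.26 in CX3CR1hi cells (called).

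Weighted by templates, the CDR3 length difference from CD27hiCX3CR1lo cells was 1.61 bases in CX3CR1hi cells and 0.442 in TILs for TCRBV03-01 and 0.361 in TILs for TCRBV04-01, all reversed, and TCRBV03-01 insertions in CX3CR1hi cells differed by 1.14 bases (called). At a threshold of 0.5%, expanded TCRBV04-01 clones differed by 40.4 points (adjusted p = 0.116, exact permutation test). Counted as unique TIL rearrangements, the shared part differed by 30.0 points for TCRBV03-01 and 22.8 for TCRBV04-01 (adjusted p = 0.0448 each, exact permutation test).

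Leaving out 1 experiment at a time, the ratio of TCRBV03-01 ran from 0.15 to 0.17 in CD27loCX3CR1lo cells, 0.09 to 0.15 in CD27hiCX3CR1lo cells and 0.32 to 0.41 in TILs, and from -0.03 to 0.02 for CX3CR1hi minus CD27hiCX3CR1lo. TCRBV03-01 with TCRBJ01-03 ran from 0.88 to 1.01 in CX3CR1hi cells and 0.60 to 1.25 in TILs, and 0 to 2 J genes of TCRBV03-01 were called. The TCRBV04-01 template share in TILs against CD27hiCX3CR1lo cells ran from -0.25 to 0.48, and its insertions from -0.0628 to 0.149 bases in CX3CR1hi cells and -0.0111 to 0.0648 in TILs. The expanded share ran from 60.0 to 68.5 points (TCRBV03-01) and 59.7 to 73.7 (TCRBV04-01), where 2 experiments allow no p under 0.0556 in the exact permutation test.

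Calls over all V genes moved by over 1.5 times in template shares (2, against 10 without the largest clone and 5 with DESeq2), J partners (11, against 3 with DESeq2), frame ratios (80, against 20 by templates and 49 against stop-containing rearrangements) and CDR3 length (9, against 0 weighted by templates, where 8 had an unadjusted p under 0.05 in limma). Leaving out experiment A left 3 of 10 calls in number for rearrangement shares, 0 of 2 for template shares (edgeR, 17 unadjusted) and 0 of 9 for CDR3 length; leaving out B left 1 of 11 J partners and 0 CDR3 lengths, and leaving out C left 6 J partners, 2 CDR3 lengths and 5 template shares. Depth was lowest in TILs of experiment A, where 103 TCRBV03-01 and 48 TCRBV04-01 productive rearrangements set the precision.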
